A study of Homo sapiens with 13 samples.

Results

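AXL, F3, TGFB2 and IGFBP3 are genes for secreted or cell-surface proteins that are known as targets of the Hippo pathway coactivators YAP and TAZ, and the peaks around their start sites were described in the human breast cancer line MDA-MB-231. Peaks were taken where the summit lay within 100 kb of the hg19 start of one of the 4 genes: AXL on the plus strand of chromosome 19 (41725108), F3 on the minus strand of chromosome 1 (95007413), TGFB2 on the plus strand of chromosome 1 (218518676) and IGFBP3 on the minus strand of chromosome 7 (45960871). This gave 53 of the 50467 peaks in the 4 deposited lists, 11 at AXL, 19 at F3, 10 at TGFB2 and 13 at IGFBP3. The lists come from chromatin immunoprecipitation and sequencing (ChIP-seq) of cells for which no treatment is labelled, with antibodies to YAP, TAZ (the product of WWTR1), TEAD4 (named TEF-3 by the antibody's maker) and JUN, 2 libraries each, called by the authors against 2 rabbit IgG libraries (YAP, TAZ) or pairs of 3 mouse IgG libraries (TEAD4, JUN). Each TAZ peak is named with a tag for YAP and TAZ together, and each JUN peak with a replicate tag unlike that of the other lists. The labels do not explain these tags, so the libraries behind these lists are known only as far as the labels go, and TAZ peaks with or without YAP, and all JUN values, are subject to this limit. All libraries are from the same cell line. There is 1 list per factor, so no value has a replicate spread, the depth of the libraries is unknown here, and no test between factors or genes could be made over samples. By the raw file names in the labels, YAP and TAZ were sequenced in 1 run and TEAD4 and JUN in others, with other IgG controls, so a difference of factor and one of run or IgG cannot be told apart.

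YAP and TAZ have no DNA-binding domain of their own and reach DNA through TEAD proteins, of which TEAD4 is one. JUN is a subunit of AP-1, a dimeric transcription factor of its own family. AXL is a receptor tyrosine kinase whose ligand is GAS6. F3 encodes tissue factor, the cell-surface receptor of coagulation factor VII that starts clotting. TGFB2 encodes a secreted ligand of the transforming growth factor beta family. IGFBP3 encodes a secreted protein that binds insulin-like growth factors and limits their access to the receptor.

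The windows before the start sites were read for the letters of the known binding elements, since the JUN list has a peak over the F3 start. The sequences are from RefSeq on GRCh38.p14 and give the 250 bases before the start, on the strand of the gene. They were matched by symbol, all 4 genes were found, and AXL has 2 starts in the table, 7532 bases apart. The motifs searched were TGANTCA for AP-1, which reads the same on both strands, and GGAATG for TEAD on either strand. Matches of the 2 motifs did not overlap in the windows of these genes. Of all 35116 such windows in the table, 6.57% hold the AP-1 letters and 11.9% the TEAD letters. Shown are the windows with a match: F3 (chr1:94541760-94542009, minus strand), TGFB2 (chr1:218345086-218345335, plus strand) and the second AXL start (chr19:41226505-41226754, plus strand). On hg19, the JUN list has a peak over the F3 start, and no summit is listed within 1 kb of the TGFB2, AXL or IGFBP3 start. A region of all 4 factors lay about as far into AXL on hg19 as its second start does on GRCh38.p14. Positions were not converted between the builds, so whether a listed peak covers a printed window or match was not determined. Capitals mark motif matches.
F3: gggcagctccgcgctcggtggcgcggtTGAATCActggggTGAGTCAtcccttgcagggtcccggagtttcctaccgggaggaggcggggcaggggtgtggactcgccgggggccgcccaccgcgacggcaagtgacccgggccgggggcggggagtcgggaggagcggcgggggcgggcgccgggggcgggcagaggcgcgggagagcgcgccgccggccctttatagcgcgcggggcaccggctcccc
TGFB2: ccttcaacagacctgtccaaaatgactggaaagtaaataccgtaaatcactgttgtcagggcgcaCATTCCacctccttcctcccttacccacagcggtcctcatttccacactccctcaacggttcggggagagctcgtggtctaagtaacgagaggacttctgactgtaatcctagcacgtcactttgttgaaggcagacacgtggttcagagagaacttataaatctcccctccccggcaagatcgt
AXL, second start: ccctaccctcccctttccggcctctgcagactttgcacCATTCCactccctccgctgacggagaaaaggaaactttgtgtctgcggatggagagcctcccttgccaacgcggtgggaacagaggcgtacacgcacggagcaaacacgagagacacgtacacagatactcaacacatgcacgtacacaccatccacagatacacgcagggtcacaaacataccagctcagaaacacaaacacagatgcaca
The F3 window holds the AP-1 letters at 2 places, TGAATCA from 223 to 217 and TGAGTCA from 210 to 204 bases before the start. The TGFB2 window holds the TEAD letters on the minus strand, from 185 to 180 bases before the start, and the second AXL window does so from 212 to 207 bases before its start. The windows of the first AXL start and of IGFBP3 hold neither. A match is a description of these letters and not a bound site.

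**Figure D1:**
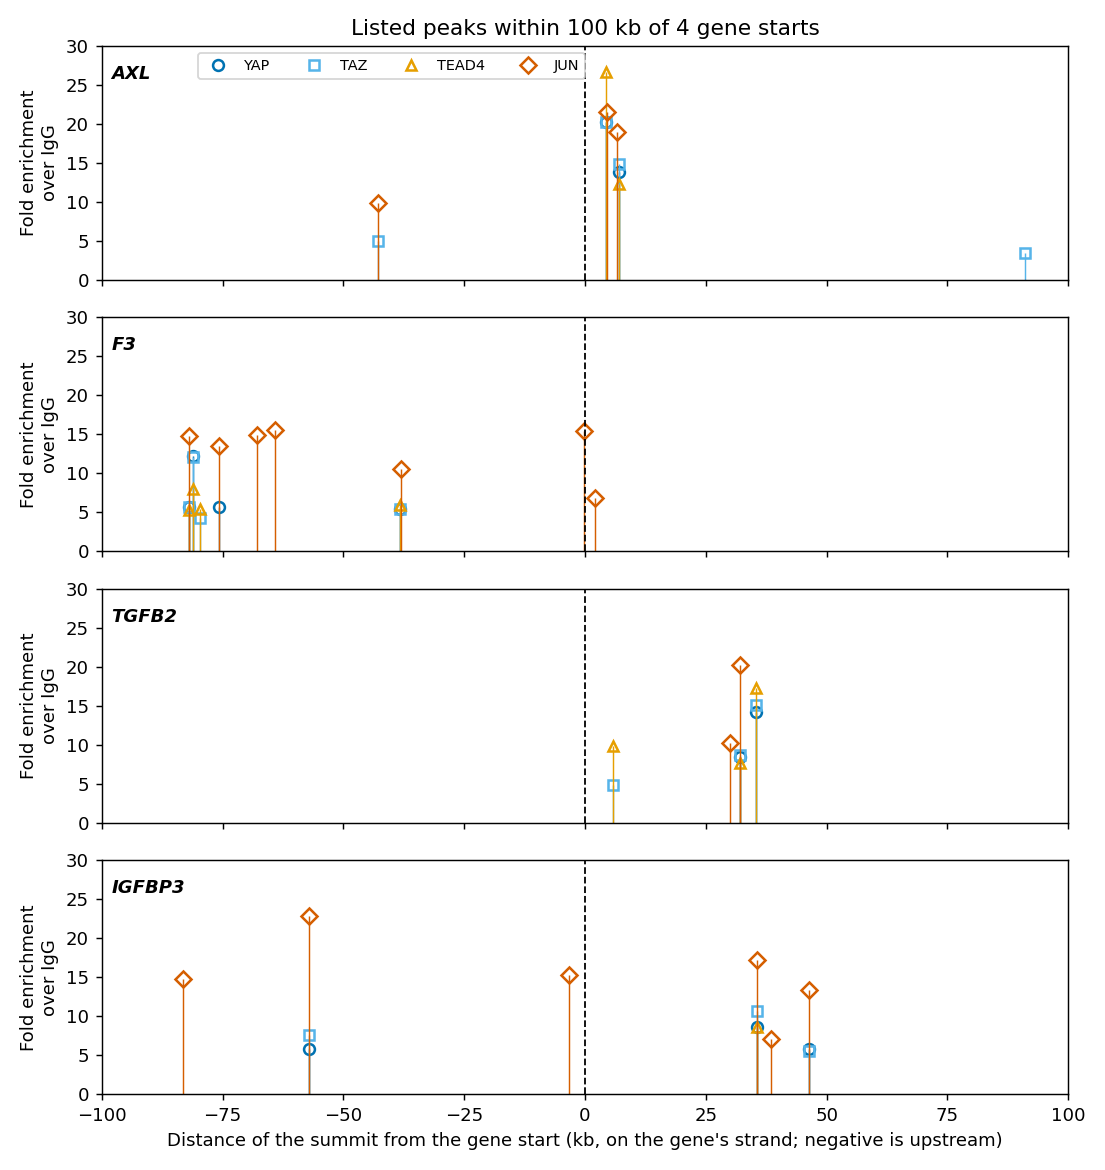
Each of the 53 listed peaks by the distance of its summit from the gene start (kb, x axis, negative is upstream on the strand of the gene) and its fold enrichment over IgG (y axis), with YAP as circles, TAZ as squares, TEAD4 as triangles and JUN as diamonds. The highest TEAD4 mark is at AXL (26.7-fold, 4439 bp downstream of the start), and the highest JUN mark is at IGFBP3 (22.8-fold, 57.0 kb upstream). Heights are to be read within a list. F3 has almost all of its peaks upstream, and TGFB2 has all of its peaks downstream.

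The 4 genes differed in where their sites lay. At AXL, 8 of the 11 peaks had their summits within 10 kb of the start. At F3, 18 of the 19 peaks were upstream and 2 were within 10 kb, both of JUN. At TGFB2 all 10 peaks were downstream, and 2 were within 10 kb. IGFBP3 had 5 peaks upstream and 8 downstream, with 1 within 10 kb, again of JUN. In all, 1 of the 53 peaks had its summit within 1 kb of a start: the JUN peak at F3. Whether a site is exonic or intronic was not determined, since no hg19 annotation was used here.

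Peaks of any list that overlapped by at least 1 bp were joined into regions, which gave 21 regions of the 28100 in the series. All 4 factors were listed in 6 of the 21 (28.6%), with 2 at AXL, 2 at F3, 1 at TGFB2 and 1 at IGFBP3. In the series as a whole 15.2% of regions held all 4. The share near the genes depends on the joining rule. With an overlap of 50% of both widths, 1 of 10 F3 regions held all 4 factors. With summits joined within 200 bp, 1 of 5 AXL regions did. The share over all regions under these 2 rules is not given here. JUN alone was listed in 8 of the 21 (38.1%), against 58.0% of all regions, and these 8 were 4 at F3, 3 at IGFBP3 and 1 at TGFB2. YAP or TAZ was listed in 13 of the 21, against 36.5% of all regions, and both together in 9 of the 21, against 25.1%. TEAD4 was listed in 8 of the 21, against 29.5% of all regions, and JUN in 18 of the 21, against 87.3%. No test was made, since regions near the same gene share a locus and there is 1 list per factor.

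**Figure D2:**
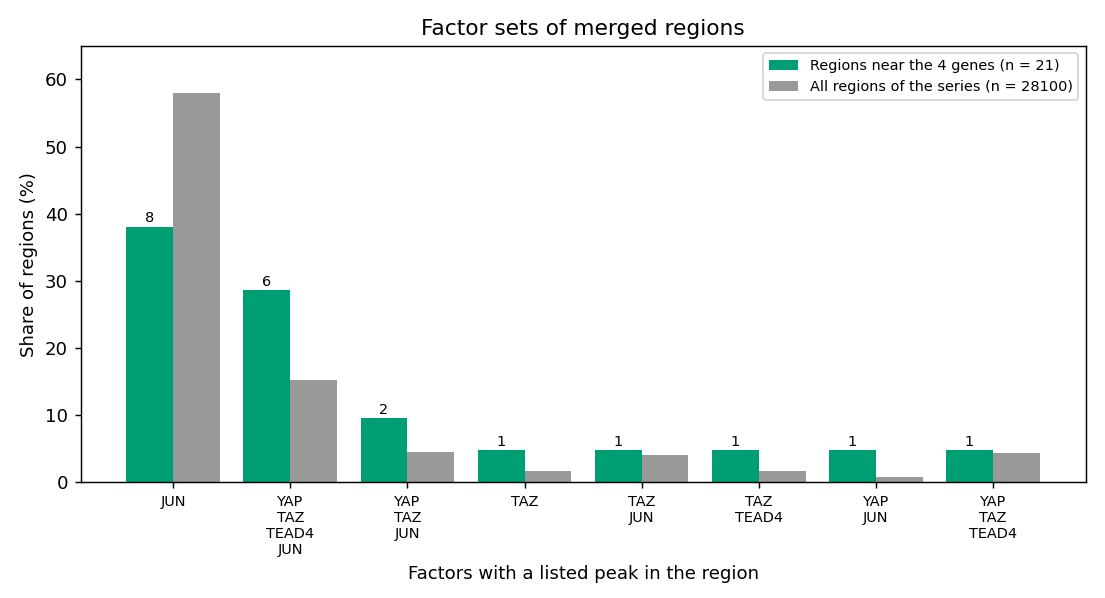
Share of merged regions (y axis, percent) by the factors listed in them (x axis), for the 21 regions near the 4 genes (green, with the number of regions above each bar) and for all 28100 regions of the series (grey). Regions with all 4 factors make up 28.6% near the genes and 15.2% in the series, and regions with JUN alone 38.1% and 58.0%.

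Each gene's 200-kb window held at least 1 region of all 4 factors. When each chromosome was divided into fixed 200-kb tiles, 19.5% of the 15151 tiles held at least 1 such region and 5.64% at least 2, as AXL and F3 did. The tiles include stretches without genes and gaps of the assembly, so a window centred on a gene is not like a typical tile. At least as many regions of any kind as F3 had (7) were found in 6.44% of tiles, as IGFBP3 had (6) in 9.37%, and as AXL and TGFB2 had (4 each) in 18.9%.

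Strength was read only as the rank of a peak within its own list, by the authors' fold enrichment over IgG. Of the 53 peaks, 11 were in the most enriched 10% of their list, against 9.99% of all peaks. Of these 11, 6 were at AXL, 4 at TGFB2, 1 at IGFBP3 and 0 at F3. They were not all separate sites. All 4 peaks of the AXL region at 4.46 kb and all 3 of the TGFB2 region at 35.3 kb were among them. Ranked by the authors' −log10 p instead, 14 were in the first 10% (10.0% of all peaks), with 7 at AXL, 3 at TGFB2, 1 at IGFBP3 and 3 at F3. At the other end, 20 of the 53 ranked in the lower 50% of their list by enrichment, 11 of them at F3. The median rank was 35.3% of the list for the 11 YAP peaks, 58.3% for the 14 TAZ peaks, 36.7% for the 10 TEAD4 peaks and 26.9% for the 18 JUN peaks, where a low percent is a strong peak and the list's own median is 50%.

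**Figure D3:**
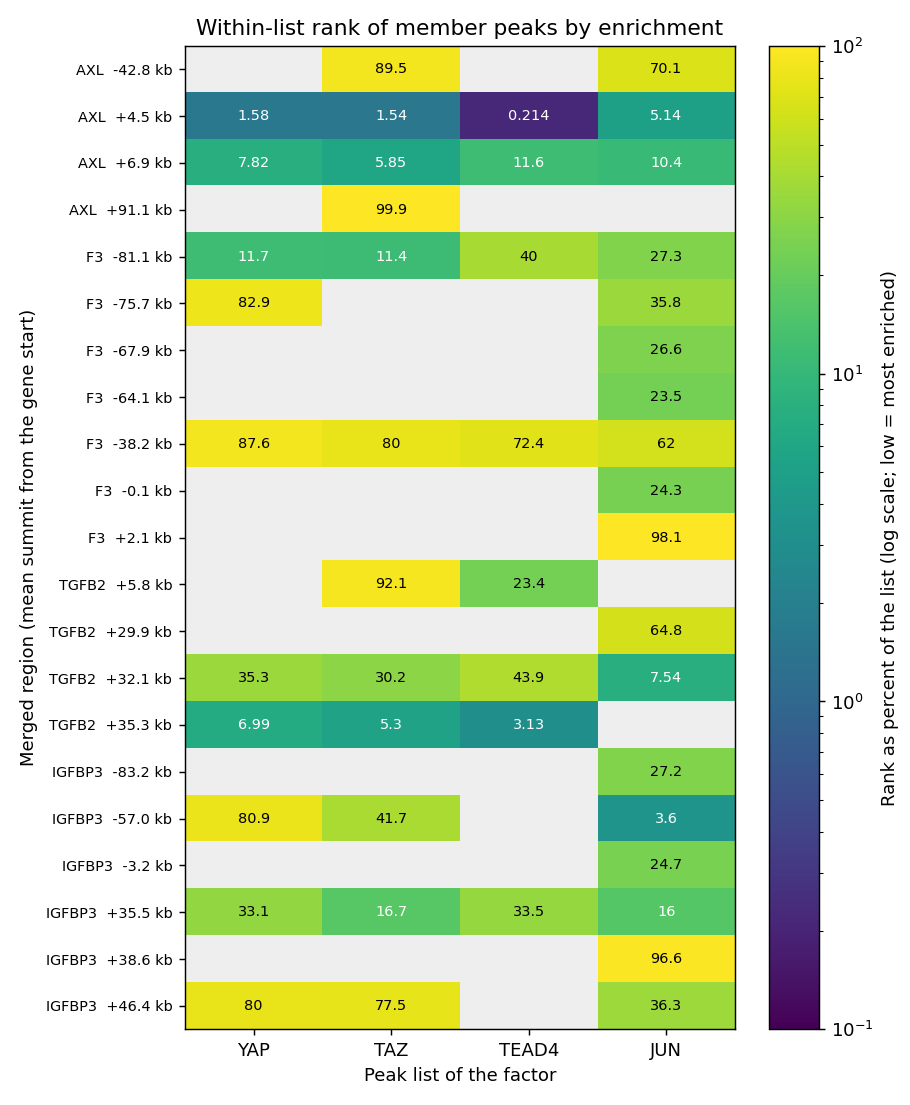
Rank of the peaks by fold enrichment as percent of their own list (colour and number, log colour scale, low is most enriched) for the 21 regions (rows, by gene and mean distance of the summits from the start) and the 4 lists (columns), with grey where no peak was listed. Where a region has several peaks of a factor the best rank is shown, which at F3 81.1 kb upstream joins separate sites. The row at AXL 4.5 kb downstream has ranks of 1.58, 1.54, 0.214 and 5.14%.

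AXL carried the region with the best mean rank of the 21. This region, the nearest to its start (chromosome 19, 41729194 to 41730336), had summits 4439 bp (TEAD4), 4445 bp (YAP), 4450 bp (TAZ) and 4500 bp (JUN) downstream. TEAD4 was 26.7-fold enriched there, JUN 21.6-fold, and YAP and TAZ 20.2-fold each. The TEAD4 peak ranked 18 of 8406 in its list, YAP 122 of 7709, TAZ 151 of 9798 and JUN 1261 of 24554. The coactivators and TEAD4 were thus in the first 2% of their lists, and JUN in the first 5.14%. By the authors' −log10 p instead, TEAD4 ranked 3, YAP and TAZ 11 each and JUN 112. By the mean of the 4 rank percents this region was number 15 of the 4284 regions with all 4 factors when ranked by enrichment and number 1 when ranked by p.

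A second AXL region with all 4 factors (chromosome 19, 41731204 to 41732731) followed at 6.90 kb. It was enriched 14.8-fold for TAZ (rank 5.85%), 13.9-fold for YAP (7.82%), 19.0-fold for JUN (10.4%) and 12.3-fold for TEAD4 (11.6%). All 4 enrichments were lower than at the first region. This second region was number 246 of the 4284 by enrichment and 134 by p. Here the factors did not share a point: the TAZ, TEAD4 and YAP summits fell at 6970, 7005 and 7006 bp, and the JUN summit at 6605 bp, 401 bp nearer the start than YAP. Under the rule that joins summits within 200 bp, this region became a JUN site and a YAP, TAZ and TEAD4 site, and AXL had 1 region of all 4 factors. The peaks covered bases 6096 to 7623 after the hg19 start, and the TEAD4 peak only bases 6252 to 7268. RefSeq's second AXL start lies 7532 bases after the first on GRCh38.p14, and positions were not converted between the builds.

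The remaining AXL peaks were weak. Upstream, at 42.8 kb, TAZ (4.99-fold, rank 89.5% of its list) overlapped JUN (9.83-fold, rank 70.1%). The nearest YAP and TEAD4 summits from there were those of the first downstream region, 47.2 kb away. A TAZ peak without any other factor lay 91.1 kb downstream (3.48-fold) and was 9790 of the 9798 TAZ peaks by enrichment.

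F3 had the most peaks of the 4 genes within 100 kb (19) and the fewest within 50 kb (6, against 9 or 10 at the others). No YAP, TAZ or TEAD4 summit was listed nearer to its start than 38199 bp. The only listed factor at the promoter was JUN, with its summit 124 bp upstream, 15.4-fold enrichment and a rank of 5973 of 24554 (24.3%) by enrichment and 2089 (8.51%) by p. On hg19 that peak ran from -815 to 698 bp relative to the start. The 250 bases printed above, which hold the AP-1 letters at 2 places, are counted from the GRCh38.p14 start. Positions were not converted between the builds, so the distance of the summit from these letters was not determined. A smaller JUN peak lay 2132 bp downstream (6.82-fold, rank 98.1%). From the promoter peak the nearest listed TAZ, TEAD4 and YAP summits were 38075, 38083 and 38090 bp away.

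Those summits belong to the F3 region with all 4 factors that is nearest the start (chromosome 1, 95045222 to 95046268), 38.2 kb upstream. JUN was 10.5-fold enriched, TEAD4 5.95-fold, TAZ 5.47-fold and YAP 5.44-fold. By enrichment each of these ranked in the lower part of its list, JUN at 62.0%, TEAD4 at 72.4%, TAZ at 80.0% and YAP at 87.6%. By p the JUN peak ranked at 38.2%, and TEAD4 (60.9%), TAZ (77.3%) and YAP (92.1%) again in the lower part. The region was number 4108 of the 4284 with all 4 factors by enrichment and 4003 by p, near the opposite end of that order from the AXL region.

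The second F3 region with all 4 factors lay 81.1 kb upstream (chromosome 1, 95086767 to 95089854) and was joined by a JUN peak of 3088 bp, the 42nd widest of the 24554 JUN peaks. Under it lay 2 YAP, 3 TAZ and 3 TEAD4 peaks at 3 separate places. The strongest of these, 81050 to 81065 bp upstream, had 12.2-fold enrichment for YAP (rank 11.7%), 12.1-fold for TAZ (11.4%) and 7.99-fold for TEAD4 (40.0%), and the JUN summit was 915 bp from the YAP summit. At the outermost place, the YAP, TAZ and TEAD4 summits were 16, 22 and 53 bp from the JUN summit; JUN was 14.8-fold enriched there, TAZ 5.71-fold, YAP 5.65-fold and TEAD4 5.30-fold. At the innermost, 79671 to 79680 bp upstream, TAZ (4.22-fold) and TEAD4 (5.37-fold) were listed without YAP. When peaks had to overlap by 50% of both widths, F3 had 1 region of all 4 factors, the one 38.2 kb upstream.

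Between these F3 regions, JUN was listed alone 64.1 kb upstream (15.5-fold, rank 23.5%) and 67.9 kb upstream (14.9-fold, rank 26.6%). These were about as enriched as the JUN peak at the promoter. At 75.7 kb upstream, YAP (5.68-fold, rank 82.9%) overlapped JUN (13.5-fold, rank 35.8%) without TAZ, a set found at 207 of all regions (0.737%). The nearest TAZ summit was 4008 bp from it, at the innermost place of the 81.1-kb region.

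TGFB2 had a strong YAP, TAZ and TEAD4 site without JUN. At 35.3 kb downstream (chromosome 1, 218553577 to 218554377) the YAP, TEAD4 and TAZ summits fell at 35297, 35298 and 35301 bp, within 4 bp of each other. Fold enrichment was 14.2 for YAP (rank 6.99%), 15.1 for TAZ (5.30%) and 17.3 for TEAD4 (263 of 8406, 3.13%). It was number 54 of the 1209 regions with YAP, TAZ and TEAD4 alone by enrichment and 33 by p. The nearest JUN summit was 3158 bp away, in the neighbouring region.

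That neighbour, 32.1 kb downstream (chromosome 1, 218550349 to 218551176), was the TGFB2 region with all 4 factors. JUN was its strong member, with 20.3-fold enrichment and a rank of 7.54%. The others had 8.44-fold for YAP (35.3%), 8.64-fold for TAZ (30.2%) and 7.67-fold for TEAD4 (43.9%). Side by side, then, the 2 regions had their strongest ranks in different lists. With each list reduced to its stronger 50% by p, the TEAD4 peak here (rank 50.8% by p) was lost and TGFB2 had 0 regions of all 4 factors. By enrichment all 4 peaks ranked in the upper 50% of their lists.

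Nearest to the TGFB2 start lay a TEAD4 peak 5787 bp downstream (9.82-fold, rank 23.4%) with a weak TAZ peak at 5843 bp (4.83-fold, rank 92.1%). Neither YAP nor JUN was listed there, and their nearest summits were 26.3 kb (YAP) and 24.1 kb (JUN) away. TAZ with TEAD4 alone made up 461 of all regions (1.64%). A JUN peak without the other factors stood at 29920 bp (10.3-fold, rank 64.8%).

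By enrichment, IGFBP3 had the strongest JUN peak of the 4 genes, and it had only 1 TEAD4 peak. Ranked by p, JUN peaks at AXL (112 and 339 of 24554) were ahead of that peak (500, 2.04%). The IGFBP3 JUN peak, 57.0 kb upstream (chromosome 7, 46017476 to 46018540), had 22.8-fold enrichment and ranked 885 of 24554 (3.60%) by enrichment. YAP (5.79-fold, rank 80.9%) and TAZ (7.54-fold, rank 41.7%) overlapped it, and the nearest TEAD4 summit was 92.5 kb away. The same set of YAP, TAZ and JUN without TEAD4 recurred 46.4 kb downstream, with 5.83-fold for YAP, 5.59-fold for TAZ and 13.4-fold for JUN. This set accounts for 1248 of all regions (4.44%), so 2 of 21 near the 4 genes is a small number to compare.

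The IGFBP3 region with all 4 factors lay 35.5 kb downstream (chromosome 7, 45924635 to 45925826). Fold enrichment was 8.66 for YAP (rank 33.1%), 10.7 for TAZ (16.7%), 8.58 for TEAD4 (33.5%) and 17.2 for JUN (16.0%). It was number 1226 of the 4284 by enrichment and 1058 by p. Nearest to the start was a JUN peak without other factors, 3233 bp upstream (15.3-fold, rank 24.7%). Other JUN peaks alone lay 83.2 kb upstream (14.8-fold, rank 27.2%) and 38.6 kb downstream (7.14-fold, rank 96.6%). In the order of genes along the chromosome in RefSeq, IGFBP1, another gene for a binding protein of insulin-like growth factors, is the next protein-coding gene on the downstream side of IGFBP3. Which of the genes a downstream site lies nearest to was not determined.

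By their medians, the summits of YAP, TAZ and TEAD4 lay closer to each other than to JUN at these genes. Where a region held several peaks of a factor, the nearest pair of summits was taken. YAP and TAZ summits were a median of 10 bp apart (9 regions, 1 to 36 bp), those of YAP and TEAD4 6 bp (7 regions, 1 to 22 bp) and those of TAZ and TEAD4 9.5 bp (8 regions, 3 to 56 bp). Over all regions of the series the same medians were 17, 16 and 17 bp. Distances to JUN were longer, with medians of 38 bp from YAP (9 regions), 37 bp from TAZ (9 regions) and 57 bp from TEAD4 (6 regions, 37 to 400 bp), against 27, 27 and 30 bp over all regions. In all 6 regions with both, the TEAD4 and JUN summits were farther apart than that last median. Single sites departed from this order. In the IGFBP3 region 35.5 kb downstream the YAP summit was 30 bp from TAZ, 22 bp from TEAD4 and 19 bp from JUN. In the TGFB2 region 32.1 kb downstream the TAZ summit was 20 bp from TEAD4 and 17 bp from JUN. At the outermost F3 place, 81949 bp upstream, the YAP summit was 37 bp from TEAD4 and 16 bp from JUN. The nearest YAP and TEAD4 pair of that F3 region, 15 bp apart, lay at another place and was the one taken above. With 6 to 9 regions a pair these are descriptions.

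**Figure D4:**
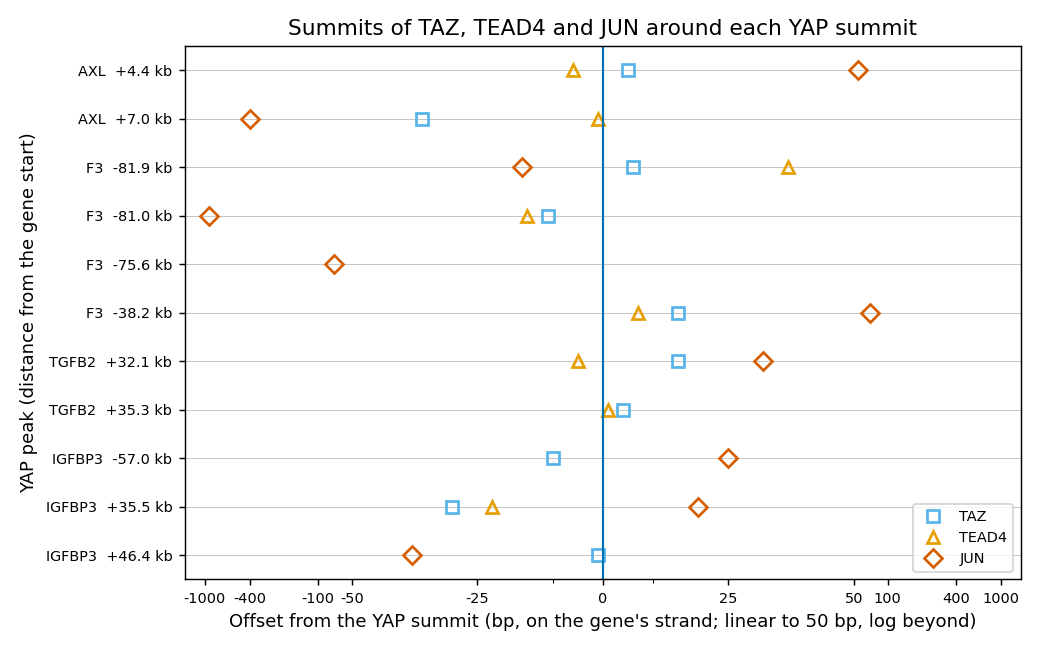
Offset of the TAZ (squares), TEAD4 (triangles) and JUN (diamonds) summit nearest to each of the 11 YAP summits in the same region (bp on the strand of the gene, linear to 50 bp and logarithmic beyond), with the YAP summit at 0 and one row per YAP peak. TAZ and TEAD4 summits fall within 37 bp of YAP, and JUN summits lie 16 to 915 bp away, on either side.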

How the data were processed

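Binding of YAP, TAZ, TEAD4 and JUN was measured by ChIP-seq in MDA-MB-231, with 2 libraries per factor and 5 IgG controls, grouped by their titles and antibodies. The tools, per the submitters' processing notes, were MACS2 2.0.10, Bowtie 0.12.7, CASAVA and SAMtools on build hg19, and per the labels the authors called peaks in the IDR (irreproducible discovery rate) framework against pooled IgG pairs, with 0.01 in the list names. Each deposited peak has a fold enrichment over IgG (a ratio) and a −log10 p-value, both the authors' own, used only within a list. An absent peak means one not listed at that threshold.

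Peaks were joined by an overlap of at least 1 bp, ranked by enrichment, and set beside all regions and fixed 200-kb tiles (Python 3.11.15, pandas 2.3.3). The joining step was tested on simulated data. No p-value was computed. Regions named in full were, for each gene, the 4-factor region nearest the start, the best rank for each factor and any peak within 1 kb of the start. Others are named to account for all 53 peaks. The members and lists were chosen with earlier results of these data known. Other genes of the same pathways were not analysed here, since the gene table used is on GRCh38.p14.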

Additional observations from a re-analysis of the deposited data

How the results depend on the processing

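Of 79 alternative values for 20 results, 54 stayed within 1.5 times of the reported count or rank, or within 200 bp of the reported distance, and 25 moved. Counts fell with the window by construction. Within 25 kb, AXL had 2 regions, F3 2 peaks in 2 regions with 0 of all 4 factors, TGFB2 2 peaks in 1 region with 0, and IGFBP3 1 peak in 1 region with 0. Within 50 kb, F3 had 6 peaks in 3 regions with 1 of all 4. With the stronger 50% of each list by p, AXL had 2 regions and TGFB2 0 of all 4 factors. F3 then had 11 peaks and 1 region of all 4 factors, with its mean summit at -81505.5 bp (upstream). With lists of equal length (7709 peaks), AXL had 2 regions and F3 1 of all 4 factors. That number was also 1 for F3 with an overlap of 50% of both peaks, and 1 for AXL with summits within 200 bp. Ranked by p, the best percent was 0.0357 at AXL, 6.72 at F3 and 2.04 at IGFBP3, against 0.214, 11.4 and 3.60 by enrichment. Measuring to the peak edge moved no count by over 1.5 times. No paired analysis was possible because 1 list stands for both replicates of a factor, which also prevents leaving one out. What depth limits is unknown here.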

Other observations

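The edge of the window left out a strong site beside F3. The nearest listed peak outside was of YAP, 104.6 kb upstream, with 17.3-fold enrichment and rank 255 of 7709 (3.31%). The most enriched YAP peak inside had 12.2-fold (11.7%). The farthest peak inside was that of JUN at 82.0 kb (14.8-fold). At AXL the farthest peak inside was the TAZ peak at 91.1 kb (3.48-fold), and the nearest outside was of JUN at 102.9 kb downstream (9.84-fold). A TEAD4 peak of 18.4-fold (rank 2.41%) lay 11.8 kb from that TAZ peak and so beyond the window. A weak YAP peak (5.14-fold, rank 92.4%) and the JUN peak just named each lay 11.7 kb from the TAZ peak, also outside. The nearest peaks outside were of JUN at 114.8 kb from TGFB2 and 194.3 kb from IGFBP3.

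In RefSeq's order of protein-coding genes, the neighbours on either side are CYP2S1 and HNRNPUL1 for AXL, ABCD3 and SLC44A3 for F3, RRP15 and LYPLAL1 for TGFB2, and IGFBP1 and TNS3 for IGFBP3. Several of the AXL peaks were wide: at 6.90 kb the TAZ peak of 1405 bp ranked 198 of 9798 by width, the YAP peak of 1185 bp 166 of 7709 and the TEAD4 peak of 1017 bp 228 of 8406. The peak names carry numbers that ascend along each chromosome. If these count all candidates, at most 14 JUN and 6 YAP candidates between the nearest listed peaks outside the TGFB2 window were not listed, and at most 5 of TEAD4 at IGFBP3.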
